A study of Mus musculus with 12 samples.

Results

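The 10 genes described here encode enzymes and partners of the chromatin marks that repress genes. They are the DNA methyltransferase genes Dnmt1, Dnmt3a and Dnmt3b, the Dnmt1 partner gene Uhrf1, the TET dioxygenase genes Tet1, Tet2 and Tet3, and the Polycomb genes Ezh1, Ezh2 and Suz12. They were matched by symbol among the 55335 genes counted in each library, and all 10 had enough reads for a test, as had 22635 genes in all. The libraries hold RNA of muscle stem cells (MuSCs) from adult Pax7-ZsGreen mice, in which a green fluorescent protein driven by Pax7, the transcription factor that marks these cells, lets them be sorted from hindlimb muscle. There were 4 groups of 3 libraries each. F cells (replicates 1, 4 and 5) were lysed as they were sorted and had spent no time in culture. 2d-U cells (replicates 1, 2 and 3) grew uncompressed for 2 days, and 5d-U cells (replicates 1, 2 and 6) grew uncompressed for 5 days. 2+3d-C cells (replicates 4, 5 and 10) grew for 2 days uncompressed and then for 3 days under a pillared silicone film that limits cell height. All cultures were in growth medium with FGF and serum on a coat of Matrigel and fibronectin. The labels do not say whether libraries of a group came from separate mice, sorts or cultures, so the p-values measure the spread between these libraries only.

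A cell that divides must copy its DNA methylation. Dnmt1 does this at the replication fork, where Uhrf1 recognizes half-methylated DNA and brings it in, while Dnmt3a and Dnmt3b set new methylation and the TET enzymes oxidize it, a step towards its removal. Polycomb repressive complex 2 (PRC2) places methyl groups on lysine 27 of histone H3 (H3K27) through either Ezh2, known from dividing cells, or Ezh1, known from resting and differentiated cells, and needs Suz12 to hold together. In MuSCs, Ezh2 is known for keeping the stem cell pool during activation.

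Reads counted on genes ranged from 12540745 (2+3d-C replicate 5) to 62424851 (2+3d-C replicate 4), so both extremes of depth fell in the compressed group. The floor was set at 3 reads, or 0.239 CPM (reads scaled to a fixed library total) in the former library and 0.0481 in the latter. It covers counting error only, because PCR copies cannot be told from separate molecules in these data. Levels are given in RPKM, which is CPM of the scaled library per kb of exon. All 9 MuSC markers examined, Pax7 among them, had more than 3 reads in every library, but so had all markers of 6 other cell types in F and all endothelial markers in 2+3d-C, so this does not set the labelled cells apart from others. 2 features set some libraries apart. Families of genes that most tissues keep silent (1853 genes, such as olfactory receptors) had 3.84 and 0.641 reads per kb in replicates 1 and 6 of 5d-U and 5.12 and 7.24 in replicates 4 and 5 of F, against at most 0.229 in the other libraries. In addition, 2+3d-C replicate 10 had at most 5 reads on 319 of the 8719 genes (3.66%) that reached 1 RPKM in both other libraries of its group, and Dnmt3b, Tet3 and Ezh2 were among them. The share was 2.81% in 2+3d-C replicate 5, 2.47% in F replicate 1 and at most 0.48% elsewhere. Leaving out the 4 libraries with reads on silent genes leaves 1 library each of F and 5d-U. Uhrf1 and Tet2 in 2+3d-C against 5d-U then had log2 fold changes of -6.90 and 4.99. Ezh1 and Ezh2 in that comparison had 1.97 and -2.91, beside 1.96 and -2.95 with all libraries. Dnmt1, Uhrf1 and Tet2 in 2d-U against F had 2.68, 4.00 and -4.19, and Uhrf1 and Tet2 in 5d-U against F had 3.96 and -4.45. The calls of Ezh1 and Ezh2 against 5d-U and of Dnmt1 and Uhrf1 in 2d-U against F were lost, as were both in 5d-U against F. The fit then takes the lone library to vary like the others.

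Compressed and uncompressed cells at day 5 differed in 4 of the 10 genes. Under compression, Tet2 and Ezh1 were higher, and Uhrf1 and Ezh2 were lower (edgeR's quasi-likelihood test, Benjamini-Hochberg adjusted over all tested genes, adjusted p under 0.05). Of all genes tested, 22.6% passed in this comparison, 9.14% higher and 13.4% lower. The median log2 fold change of the 10 genes was 0.60, beside -1.05 over all genes tested and -0.063 over the 10816 that averaged 5 CPM or more. Against 2d-U, the state from which compression started, Tet2 was higher and Dnmt1 and Uhrf1 were lower in 2+3d-C, which makes 3 of 10 genes beside 24.6% of all genes (16.0% higher and 8.63% lower). Libraries of the 2 groups did not overlap for 5 of the 10 genes against 5d-U, beside 42.4% of all genes, and for 4 against 2d-U, beside 35.6%. The 6 comparisons share groups, so their results are not independent of one another.

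**Figure D1:**
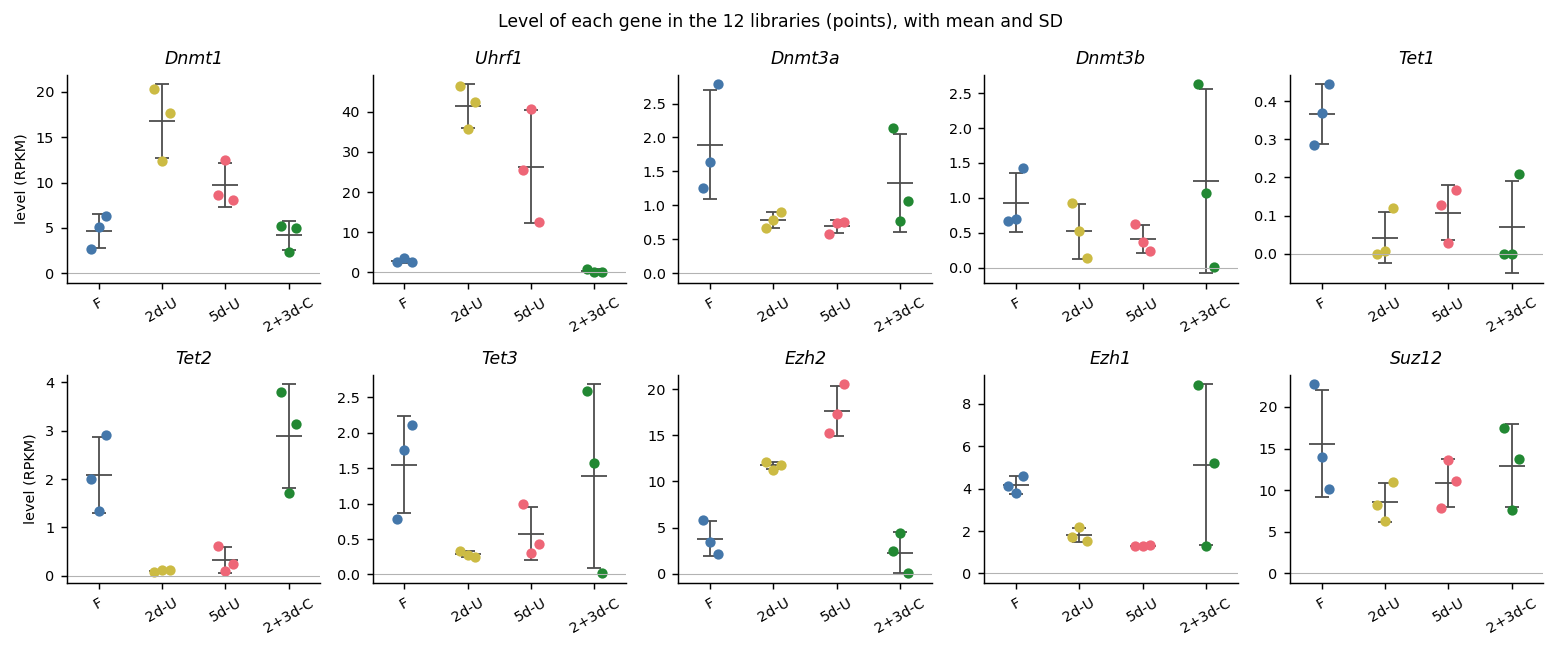
Level in RPKM (vertical axes, which differ between panels) of each of the 10 genes in the 3 libraries of each group (points), with the group mean and SD (bars). Uhrf1 lies between 12.6 and 46.4 RPKM in the 6 uncompressed cultures and at or below 0.885 RPKM in the 3 compressed ones, and Ezh1 has almost the same level in the 3 5d-U libraries.

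Uhrf1 had the largest fold differences of the 10 genes in 2+3d-C against either uncompressed culture. Its gene (ENSMUSG00000001228.14) lies on the plus strand at chr17:56303321-56323486 (mm10), and its exons share no base with another gene. F cells held 2.62, 3.49 and 2.64 RPKM of Uhrf1 in replicates 1, 4 and 5. The level was 46.4, 35.6 and 42.4 RPKM in 2d-U replicates 1, 2 and 3, and 25.6, 40.7 and 12.6 RPKM in 5d-U replicates 1, 2 and 6. In 2+3d-C it was 0.885, 0.0284 and 0 RPKM in replicates 4, 5 and 10, which rest on 201, 1 and 0 reads. Every compressed library was thus below every library of the other groups, and every uncompressed culture was above every F library. The log2 fold change was -6.29 ± 1.16 (SE, n = 3 against 3) in 2+3d-C against 5d-U (adjusted p = 0.0017, edgeR's quasi-likelihood test) and -6.95 ± 1.20 against 2d-U (adjusted p = 0.000895, same test). All reads of the compressed group but 1 are in replicate 4, and without it these values were -11.46 and -12.11, which rest on 1 read in the 2 libraries left and depend on the fit. From F to 2d-U, Uhrf1 rose by 3.83 ± 1.03 on the log2 scale (adjusted p = 0.0122, edgeR), and in 5d-U against F it was 3.17 ± 1.00 higher (adjusted p = 0.0357, edgeR). This last call was lost without F replicate 1, 4 or 5 (adjusted p = 0.156, 0.0855 and 0.116) or without 5d-U replicate 2 (0.0882). Against F, 2+3d-C had a log2 fold change of -3.11 ± 1.01, which did not pass (adjusted p = 0.0728, edgeR), although the libraries did not overlap. Without 2+3d-C replicate 4 the value was -8.27 (adjusted p = 0.000926), and without F replicate 1 it was -3.26 (adjusted p = 0.0416), so that this call depended on single libraries.

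Dnmt1, the maintenance methyltransferase itself, moved in the same order with a smaller range. The gene (ENSMUSG00000004099.16, chr9:20907209-20959888, minus strand, mm10) shares no exon base with another gene. Its level was 2.65, 5.10 and 6.26 RPKM in F replicates 1, 4 and 5 and 20.3, 12.3 and 17.7 RPKM in 2d-U replicates 1, 2 and 3. It was 8.64, 12.5 and 8.10 RPKM in 5d-U replicates 1, 2 and 6 and 5.17, 2.34 and 5.04 RPKM in 2+3d-C replicates 4, 5 and 10. F and 2+3d-C libraries lay over the same range, and every uncompressed culture was above all of them. Dnmt1 fell in 2+3d-C against 2d-U with a log2 fold change of -2.00 ± 0.46 (adjusted p = 0.00649, edgeR's quasi-likelihood test), and was higher in 2d-U than in F by 1.85 ± 0.46 (adjusted p = 0.00834, same test). With the replicate number as a block, these values were -3.35 and 2.66 and did not pass (adjusted p = 0.0786 and 0.0754, edgeR). Compressed and uncompressed libraries share no replicate number, and uncompressed ones share only number 1 with F. That fit thus links them through few libraries and leaves little to estimate the spread from. In 2+3d-C against 5d-U the change of -1.22 ± 0.45 did not pass (adjusted p = 0.0648, edgeR), nor did that of 1.06 ± 0.45 in 5d-U against F (adjusted p = 0.12, edgeR).

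Windows of RefSeq transcription starts (build GRCm38.p6, the same assembly as mm10), from 250 bases before to 50 after each start, were read for all 10 genes, 15 windows in all. They were searched on both strands for 4 forms of the site of E2F factors, which drive S phase genes (TTTCGCGC, TTTGGCGC, TTTCCCGC and TTTGCCGC). A form was found in 4 of these 15 windows, beside 2.26% of 32851 mouse windows, and in 4 of the 10 genes (Uhrf1, Dnmt1, Ezh2 and Suz12), beside 2.6% of 27025 genes. All 4 forms contain the base pair CG. The 15 windows held 2 to 57 CG and the 4 with a match 31 to 41, beside a median of 7 over the mouse windows. The part of this base content in the shares was not tested. The windows of Uhrf1 and Dnmt1 that hold a match, at chr17:56304063-56304362 (plus strand) and chr9:20952574-20952873 (minus strand), are shown because these 2 genes carry the maintenance result, with the matches in capitals. The Uhrf1 match begins at position -185 from the start. Those of Dnmt1 begin at positions -219, on the other strand, and 34. The other window of Uhrf1 and the other 2 of Dnmt1 hold none. A match is a run of letters and was not tested as a binding site.
Uhrf1: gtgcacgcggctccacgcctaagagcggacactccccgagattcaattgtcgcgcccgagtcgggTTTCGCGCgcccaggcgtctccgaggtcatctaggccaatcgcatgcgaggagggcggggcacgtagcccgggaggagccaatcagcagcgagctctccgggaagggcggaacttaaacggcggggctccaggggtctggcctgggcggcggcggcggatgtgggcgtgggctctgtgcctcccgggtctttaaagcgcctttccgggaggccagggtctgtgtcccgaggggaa
Dnmt1: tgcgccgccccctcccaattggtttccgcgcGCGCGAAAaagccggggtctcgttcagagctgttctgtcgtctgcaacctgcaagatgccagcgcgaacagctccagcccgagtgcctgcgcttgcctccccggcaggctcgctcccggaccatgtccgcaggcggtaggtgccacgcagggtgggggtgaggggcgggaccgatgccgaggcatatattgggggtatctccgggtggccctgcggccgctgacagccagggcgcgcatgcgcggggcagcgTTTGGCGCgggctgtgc

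The ratio of Uhrf1 to Dnmt1 was taken within each library, of RPKM with 0.01 added to both genes. Uhrf1 was 1.55 to 3.24 times Dnmt1 in the 6 uncompressed cultures and 0.423 to 0.988 times Dnmt1 in F. In 2+3d-C it was 0.173 times Dnmt1 in replicate 4, 0.0163 in replicate 5 and 0.00198 in replicate 10, where Uhrf1 had no read and the value is set by the added 0.01. Across the 4 groups the ratios differed (exact permutation test of the F statistic over all assignments of libraries to groups, adjusted over 3 ratios p = 0.00136).

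Dnmt3a, which sets new methylation, had low levels, with the highest mean in F and the lowest in 5d-U. The gene (ENSMUSG00000020661.15) spans chr12:3806007-3914443 on the plus strand, and 0.799% of its exon bases are shared with the antisense gene Dnmt3aos, whose reads cannot be told apart in counts made without strand. It stood at 1.25, 1.64 and 2.79 RPKM in F replicates 1, 4 and 5, and at 0.671, 0.784 and 0.896 RPKM in 2d-U replicates 1, 2 and 3. In 5d-U replicates 1, 2 and 6 it was 0.575, 0.740 and 0.755 RPKM, and in 2+3d-C replicates 4, 5 and 10 it was 2.14, 0.777 and 1.06 RPKM. All F libraries were above all uncompressed cultures, and the compressed libraries lay above those of 5d-U but overlapped both 2d-U and F. No comparison of Dnmt3a passed the test. The nearest to it were 2d-U against F (-1.27 ± 0.53, adjusted p = 0.0607, edgeR's quasi-likelihood test) and 5d-U against F (-1.46 ± 0.54, adjusted p = 0.0699, same test). Both passed without F replicate 1 (-1.59 and -2.12, adjusted p = 0.0314 and 0.0283), and the first also without 2+3d-C replicate 5 (-1.26, adjusted p = 0.0498).

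Dnmt3b, the other enzyme for new methylation (ENSMUSG00000027478.15, chr2:153649450-153687730, plus strand), was low in all groups. Its level was 0.676, 0.699 and 1.42 RPKM in F replicates 1, 4 and 5 and 0.922, 0.522 and 0.135 RPKM in 2d-U replicates 1, 2 and 3. In 5d-U replicates 1, 2 and 6 it was 0.630, 0.376 and 0.239 RPKM. 2+3d-C held both the highest level, 2.63 RPKM in replicate 4, and the lowest, 0.0179 RPKM or 2 reads in replicate 10, with 1.06 RPKM in replicate 5. The groups overlapped in all comparisons but that of 5d-U with F, and Dnmt3b passed the test in none (adjusted p from 0.311 to 0.879, edgeR's quasi-likelihood test).

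As a share of the summed RPKM of the 3 methyltransferase genes, Dnmt1 made up 90.4 to 94.5% in 2d-U and 87.8 to 91.8% in 5d-U. It made up 57.9 to 68.5% in F. Among 2+3d-C libraries it was 52.0% in replicate 4, 56.0% in replicate 5 and 82.4% in replicate 10, the library with almost no Dnmt3b. Dnmt3a held 22.1 to 27.3% in F and 17.3 to 21.5% in 2+3d-C, above its 3.06 to 8.30% in the uncompressed cultures. Dnmt1 was 10.6 to 29.9 times Dnmt3a in uncompressed cultures, 2.11 to 3.09 times in F and 2.41 to 4.73 times in 2+3d-C. This ratio differed across the groups (exact permutation test, adjusted over 3 ratios p = 0.00136), and so it did with any library left out (adjusted p from 0.000974 to 0.00526, exact permutation test).

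**Figure D2:**
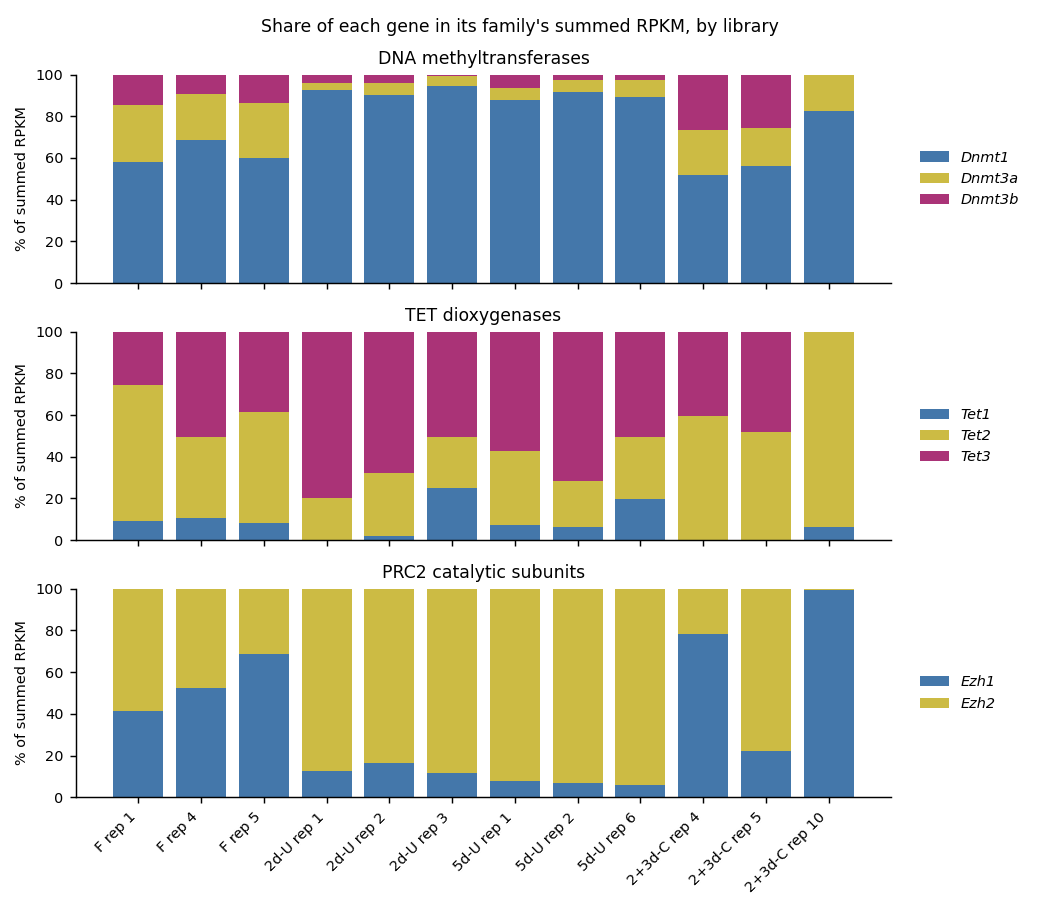
Share in percent (vertical axes, from 0 to 100) of each gene in the summed RPKM of its family, 1 bar for each of the 12 libraries, with F at the left and 2+3d-C at the right. Dnmt1 takes 87.8 to 94.5% of its family in the 6 uncompressed cultures and Ezh2 takes 83.6 to 94.0% of the Ezh pair there, while 2+3d-C replicate 5 is the compressed library whose Ezh pair is mostly Ezh2, at 77.6%.

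Tet2 rose under compression and was low in both uncompressed cultures. The gene (ENSMUSG00000040943.12) lies at chr3:133463679-133545139 on the minus strand and shares 0.255% of its exon bases with Gm42567. It had 2.00, 1.34 and 2.92 RPKM in F replicates 1, 4 and 5. In 2d-U replicates 1, 2 and 3 it had 0.0818, 0.125 and 0.117 RPKM, and in 5d-U replicates 1, 2 and 6 it had 0.624, 0.0910 and 0.252 RPKM. The compressed libraries, at 3.81, 1.70 and 3.14 RPKM in replicates 4, 5 and 10, overlapped F and were all above every uncompressed culture. The 5d-U replicate with the highest level, replicate 1, is one of those with reads on silent genes, at 0.167 RPKM on average there. Tet2 was higher in 2+3d-C by 3.16 ± 0.68 on the log2 scale against 5d-U (adjusted p = 0.00445, edgeR's quasi-likelihood test) and by 4.74 ± 0.74 against 2d-U (adjusted p = 0.00043, same test). Against F it was lower in 2d-U (-4.27 ± 0.72, adjusted p = 0.000793, edgeR) and in 5d-U (-2.69 ± 0.67, adjusted p = 0.00978, edgeR). None of these calls passed with the replicate number as a block (2.65, 3.91, -3.54 and -2.28, adjusted p from 0.0627 to 0.234, edgeR). That fit compares compressed with uncompressed libraries only through F, since they share no replicate number, and leaves little to estimate the spread from. Without 5d-U replicate 1, the values of 2+3d-C against 5d-U and of 5d-U against F were 4.06 and -3.58. The value in 2+3d-C against F was 0.47 ± 0.63 (adjusted p = 0.635, edgeR).

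Tet3 (ENSMUSG00000034832.15, chr6:83362373-83459084, minus strand) had 0.785, 1.76 and 2.11 RPKM in F replicates 1, 4 and 5 and 0.327, 0.277 and 0.243 RPKM in 2d-U replicates 1, 2 and 3. It had 1.00, 0.301 and 0.425 RPKM in 5d-U replicates 1, 2 and 6. The compressed libraries were split, with 2.59 and 1.57 RPKM in replicates 4 and 5 and 0.0137 RPKM (5 reads) in replicate 10. No comparison passed, including the one of 2+3d-C with 2d-U (2.30 ± 1.07, adjusted p = 0.129, edgeR's quasi-likelihood test) and the one of 2d-U with F, whose libraries did not overlap (-2.46 ± 1.08, adjusted p = 0.0701, same test). Without 2+3d-C replicate 10 both passed (2.88, adjusted p = 0.00464, and -2.44, adjusted p = 0.00643), and without F replicate 1 the second did (-2.87, adjusted p = 0.0486).

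Tet1 had the lowest mean level of the 10 genes in each of the 4 groups. The gene (ENSMUSG00000047146.17) lies at chr10:62804570-62908996 on the minus strand. F libraries held 0.285, 0.368 and 0.444 RPKM (106, 177 and 271 reads in replicates 1, 4 and 5), above every cultured library. Silent genes stood at 0.165 and 0.183 RPKM in F replicates 4 and 5 but at 0.00952 RPKM in F replicate 1. Reads on Tet1 numbered 0, 3 and 83 in 2d-U replicates 1, 2 and 3, 45, 12 and 53 in 5d-U replicates 1, 2 and 6, and 0, 0 and 71 in 2+3d-C replicates 4, 5 and 10. In 5d-U replicate 1, Tet1 at 0.127 RPKM was below the silent genes at 0.167 RPKM. No difference passed the test, and the smallest adjusted p was 0.201, for 2d-U against F (edgeR's quasi-likelihood test). Without 2+3d-C replicate 10, which leaves 2 compressed libraries with no read, Tet1 passed against 5d-U (adjusted p = 0.0421). Over the 3 TET genes together, the summed level was 4.00 ± 1.29 RPKM (SD, n = 3) in F, 0.433 ± 0.0400 in 2d-U, 1.00 ± 0.680 in 5d-U and 4.34 ± 1.77 in 2+3d-C. Tet3 made up 50.3 to 80.0% of it in the uncompressed cultures, and Tet2 made up 52.0 to 93.4% in 2+3d-C.

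**Figure D3:**
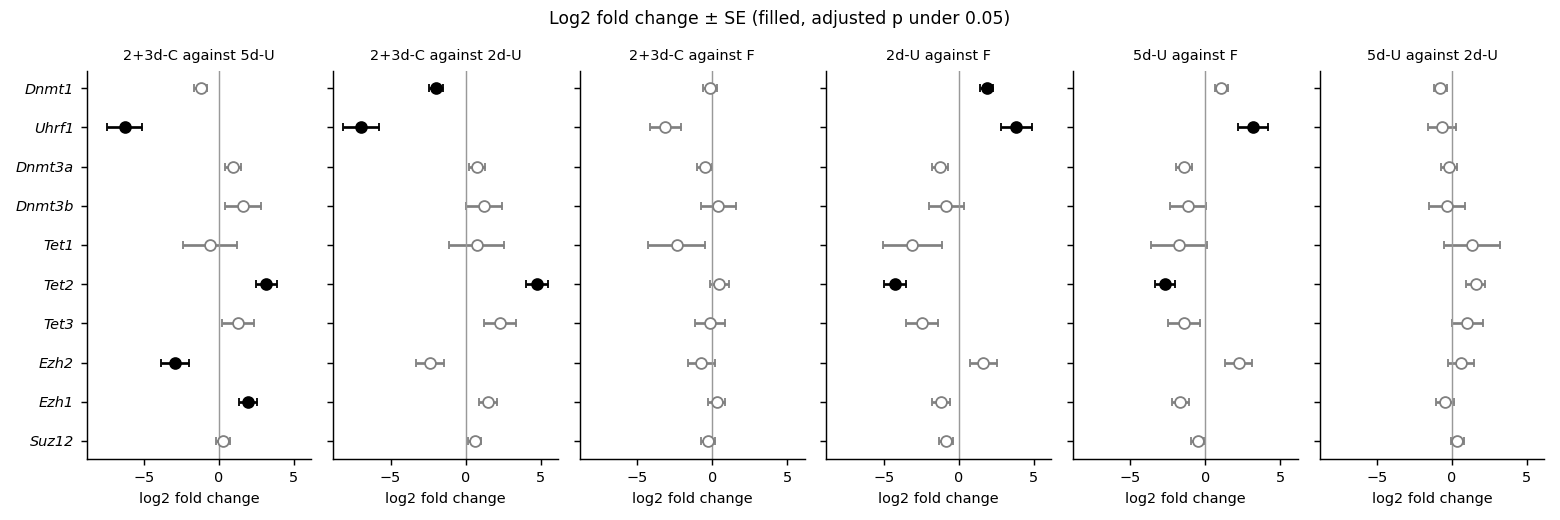
Log2 fold change (horizontal axes) of each of the 10 genes in the 6 comparisons (panels), with the SE as bars. Filled points passed edgeR's quasi-likelihood test at an adjusted p under 0.05: 4 genes in 2+3d-C against 5d-U, 3 against 2d-U and 0 against F.

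Ezh2 and Ezh1, the alternative catalytic subunits of PRC2, moved in opposite directions between compressed and uncompressed cells at day 5. Ezh2 (ENSMUSG00000029687.16, chr6:47530139-47595341, minus strand) had 5.88, 3.45 and 2.10 RPKM in F replicates 1, 4 and 5. It stood at 12.1, 11.3 and 11.8 RPKM in 2d-U replicates 1, 2 and 3 and at 15.2, 17.3 and 20.5 RPKM in 5d-U replicates 1, 2 and 6. The 3 groups did not overlap, with 5d-U the highest. In 2+3d-C it was 2.43, 4.45 and 0.0342 RPKM in replicates 4, 5 and 10, all below the uncompressed cultures, and the last value rests on 5 reads. Ezh2 fell in 2+3d-C against 5d-U with a log2 fold change of -2.95 ± 0.95 (adjusted p = 0.0374, edgeR's quasi-likelihood test). The call was lost when F replicate 1, 5d-U replicate 6 or 2+3d-C replicate 4 was left out (adjusted p = 0.0581, 0.0717 and 0.0819). Differences of 1.62 ± 0.90 in 2d-U and 2.21 ± 0.92 in 5d-U against F did not pass (adjusted p = 0.145 and 0.11, edgeR), nor did -2.36 ± 0.92 in 2+3d-C against 2d-U (adjusted p = 0.0762, edgeR). Without 2+3d-C replicate 10, these 3 values passed (1.64, adjusted p = 0.0127, 2.23, adjusted p = 0.00233, and -1.78, adjusted p = 0.027), and without replicate 5 the last passed as well (-3.24, adjusted p = 0.0353), and the value against 5d-U was -3.83.

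Ezh1 (ENSMUSG00000006920.14, chr11:101191115-101226463, minus strand) had 4.14, 3.79 and 4.59 RPKM in F replicates 1, 4 and 5 and 1.71, 2.21 and 1.55 RPKM in 2d-U replicates 1, 2 and 3. The 5d-U libraries had nearly the same level, 1.32, 1.31 and 1.32 RPKM in replicates 1, 2 and 6. Among the compressed libraries, replicates 4 and 10 had 8.88 and 5.20 RPKM, above all F libraries, while replicate 5, the shallowest library, had 1.28 RPKM from 79 reads and was below all 5d-U libraries. Ezh1 rose in 2+3d-C against 5d-U by 1.96 ± 0.59 on the log2 scale (adjusted p = 0.0287, edgeR's quasi-likelihood test) although the groups overlapped. The call was lost without 5d-U replicate 1, 2 or 6 (adjusted p = 0.0808, 0.0765 and 0.0933), and without 2+3d-C replicate 4 the value was 1.30 (adjusted p = 0.172). Without 2+3d-C replicate 5, Ezh1 passed in 2+3d-C against 2d-U (1.95, adjusted p = 0.00799) and in 2d-U and 5d-U against F (-1.18 and -1.65, adjusted p = 0.0408 and 0.0124). The values with all libraries, 1.49 ± 0.59, -1.20 ± 0.58 and -1.67 ± 0.59, did not pass (adjusted p = 0.0759, 0.0981 and 0.0595, edgeR).

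Ezh2 was 5.10 to 7.59 times Ezh1 in 2d-U and 11.5 to 15.4 times in 5d-U, by RPKM with 0.01 added to both genes. The ratio was 0.458 to 1.42 in F, where the 2 genes had similar levels. Compressed libraries differed most among themselves, at 0.275 in replicate 4, 3.45 in replicate 5 and 0.00849 in replicate 10, a value that the added 0.01 raises. The difference across the 4 groups passed an exact permutation test (adjusted over 3 ratios p = 0.0275). It passed with a smaller p without 2+3d-C replicate 5 (adjusted p = 0.000195, exact permutation test) and was lost in 10 of the 12 cases in which 1 library was left out, with an adjusted p of at most 0.0676.

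Suz12, the scaffold of PRC2, had the smallest range of fold changes. The gene (ENSMUSG00000017548.15, chr11:79993106-80034123, plus strand) had 22.7, 13.9 and 10.1 RPKM in F replicates 1, 4 and 5 and 8.27, 6.29 and 11.0 RPKM in 2d-U replicates 1, 2 and 3. It had 7.88, 13.7 and 11.1 RPKM in 5d-U replicates 1, 2 and 6 and 17.5, 7.62 and 13.7 RPKM in 2+3d-C replicates 4, 5 and 10. All groups overlapped, and no comparison passed (adjusted p from 0.123 to 0.718, edgeR's quasi-likelihood test). The start windows of the 3 PRC2 genes are shown because Ezh1 and Ezh2 moved apart. Those of Ezh2 (chr6:47594981-47595280, minus strand) and Suz12 (chr11:79992856-79993155, plus strand) hold an E2F form, in capitals, at positions 4 and -219 from the start, and that of Ezh1 (chr11:101226414-101226713, minus strand) holds none. Of the 4 genes with a match, Suz12 was the 1 that passed the test in no comparison. Among the genes without a match, Tet2 and Ezh1 passed in some comparison, and Dnmt3a, Dnmt3b, Tet1 and Tet3 in none. A link between matches and levels was not tested.
Ezh2: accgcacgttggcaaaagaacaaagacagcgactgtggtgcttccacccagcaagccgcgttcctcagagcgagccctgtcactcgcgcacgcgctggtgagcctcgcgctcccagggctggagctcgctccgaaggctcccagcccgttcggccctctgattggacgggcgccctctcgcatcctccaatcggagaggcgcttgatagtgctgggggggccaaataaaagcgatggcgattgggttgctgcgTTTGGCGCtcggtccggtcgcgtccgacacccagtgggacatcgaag
Ezh1: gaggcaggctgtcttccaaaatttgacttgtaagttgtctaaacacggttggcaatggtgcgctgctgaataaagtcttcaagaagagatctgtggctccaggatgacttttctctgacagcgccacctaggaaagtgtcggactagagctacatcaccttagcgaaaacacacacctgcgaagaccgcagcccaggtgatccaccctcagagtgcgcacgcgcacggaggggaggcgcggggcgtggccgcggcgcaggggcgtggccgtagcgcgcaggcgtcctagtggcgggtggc
Suz12: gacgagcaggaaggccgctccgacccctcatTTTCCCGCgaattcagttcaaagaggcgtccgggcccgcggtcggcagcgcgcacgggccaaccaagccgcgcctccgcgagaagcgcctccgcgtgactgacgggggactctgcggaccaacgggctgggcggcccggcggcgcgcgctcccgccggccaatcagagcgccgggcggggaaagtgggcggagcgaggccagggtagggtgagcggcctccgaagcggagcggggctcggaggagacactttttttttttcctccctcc

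Between compressed and freshly isolated cells, none of the 10 genes passed the test (edgeR's quasi-likelihood test), beside 6.40% of all genes, 1.94% higher and 4.47% lower. That share depends on single libraries, since the 1449 genes became 248 without F replicate 4 and 10063 without F replicate 1. Uhrf1 alone had an unadjusted p under 0.05, and DESeq2 called 1 gene, Uhrf1. With the replicate number as a block, Uhrf1 (-3.43, adjusted p = 0.00347, edgeR) and Tet1 (-10.5, adjusted p = 0.00468, edgeR) passed. 2+3d-C replicate 10 shares its number with no other library, so the block takes up its value. Both results then rest on 2+3d-C replicates 4 and 5, which had 201 and 1 reads of Uhrf1 and 0 of Tet1. Uhrf1 and Tet1 were the 2 genes whose libraries did not overlap, and both were lower in 2+3d-C, while 27.1% of all genes did not overlap. The values for Dnmt1 (-0.16 ± 0.45), Ezh1 (0.30 ± 0.57) and Suz12 (-0.27 ± 0.45) were smaller than their SE, and for 8 of the 10 genes, all but Uhrf1 and Tet1, the SD among the 3 compressed libraries exceeded the difference between the 2 group means. The median of the 10 genes was -0.21, beside -0.76 over all genes and 0.18 over those with at least 5 CPM, so it lay above the one and below the other. With 3 libraries a group, these values do not show that the levels were equal.

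Culture without compression moved 3 genes by day 2. Dnmt1 and Uhrf1 were higher and Tet2 was lower in 2d-U than in F, beside 43.8% of all genes that passed, 10.6% higher and 33.3% lower (edgeR's quasi-likelihood test). At day 5, Uhrf1 was higher and Tet2 lower than in F, beside 20.5% of all genes (11.6% higher and 8.90% lower). Libraries did not overlap for 8 of the 10 genes at either time, beside 52.5% of all genes at day 2 and 44.2% at day 5. Between 5d-U and 2d-U, 0 of the 10 genes passed with edgeR and 0 with DESeq2, and 1, Tet2, had an unadjusted p under 0.05 (1.58 ± 0.65, adjusted p = 0.12, edgeR), while 2.12% of all genes passed, 1.87% higher and 0.243% lower. The levels of Ezh1 and Ezh2 did not overlap between the 2 uncompressed groups, in opposite directions, as did those of 37.1% of all genes.

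Other PRC2 genes moved in both directions. Against 5d-U, 3 of 10 core and accessory subunits were higher in 2+3d-C, 3 were lower and 4 did not pass (edgeR's quasi-likelihood test), beside 9.14% of all genes higher and 13.4% lower. Lower were the core subunits Eed, which binds the finished mark, at 17.8 ± 8.70 against 57.6 ± 6.78 RPKM (SD, n = 3), and Rbbp4, a histone-binding protein shared with other complexes, at 35.3 ± 11.0 against 108 ± 34.6 RPKM. Phf19, an accessory subunit, had no read in any 2+3d-C library and 419 in 5d-U, so it was at least 162-fold lower, with the floor of 3 reads taken over the group. Higher were the accessory subunits Jarid2 (3.69 ± 1.37 against 0.660 ± 0.145 RPKM), Aebp2 (18.4 ± 5.90 against 7.39 ± 2.37 RPKM) and Phf1 (4.02 ± 2.41 against 0.654 ± 0.315 RPKM). Against F, Phf19, which was lower, was the 1 gene of this list that passed, beside 6.40% of all genes, 4.47% lower. In 2d-U against F, Eed and Rbbp7 rose and Jarid2 and Phf1 fell, beside 10.6% of all genes higher and 33.3% lower.

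PRC1, which marks histone H2A with ubiquitin and in some of its forms reads H3K27 methylation, moved in both directions as well. Against 5d-U, 5 of its 26 subunits were higher and 4 were lower in 2+3d-C (edgeR's quasi-likelihood test), beside 9.14% and 13.4% of all genes, with a median log2 fold change of 0.40 beside -1.05 over all genes and -0.063 over those with at least 5 CPM. Among the higher were Ring1, a ubiquitin ligase (13.7 ± 4.79 against 3.36 ± 0.658 RPKM), the chromobox gene Cbx7 (3.34 ± 1.62 against 0.785 ± 0.222 RPKM), Bcor and Scmh1. The lower were Bmi1, known for stem cell self-renewal (4.67 ± 1.69 against 24.1 ± 9.56 RPKM), L3mbtl2, and the chromobox genes Cbx2 and Cbx8. These last 2 had no read in any compressed library and lay at least 259-fold and 296-fold below 5d-U, by the same floor. Both also passed against F, where 4.47% of all genes were lower. In 2d-U against F, 6 subunits, Cbx2 and Cbx8 among them, were higher and 4 were lower, beside 10.6% of all genes higher and 33.3% lower.

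Of 7 genes for enzymes and partners that undo the Polycomb marks (H3K27 demethylases and the H2A deubiquitinase), Kdm6a, Kdm6b and Asxl1 rose in 2+3d-C against 5d-U and Asxl2 fell (edgeR's quasi-likelihood test), beside 9.14% of all genes higher and 13.4% lower. Kdm6b, a demethylase that many signals induce, stood at 8.91 ± 2.98 RPKM in F, 0.119 ± 0.0385 in 2d-U, 0.758 ± 0.720 in 5d-U and 21.2 ± 4.40 in 2+3d-C (SD, n = 3). It was 4.81 ± 0.67 higher on the log2 scale against 5d-U (adjusted p = 0.000219, edgeR). Kdm6a, its X-linked relative, had 5.59 ± 3.09 RPKM in F, 1.07 ± 0.441 in 2d-U, 1.03 ± 0.451 in 5d-U and 4.93 ± 2.91 in 2+3d-C. None of the 7 genes passed in 2+3d-C against F, where 6.40% of all genes did. In 2d-U against F, Kdm6a, Kdm6b, Uty and Asxl3 were lower, beside 33.3% of all genes. Asxl3 averaged only 0.202 RPKM in F, where silent genes stood at 0.165 and 0.183 RPKM in replicates 4 and 5. The part of such reads in its value was not tested. Uty, the Y-linked relative of Kdm6a, had no read in any 2d-U library. It ranged from 0 to 4.37 RPKM in F, from 0 to 1.39 in 5d-U and from 0 to 6.27 in 2+3d-C. The sex of the mice is not given in the sources used here, and its part in the call of Uty was not tested.

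**Figure D4:**
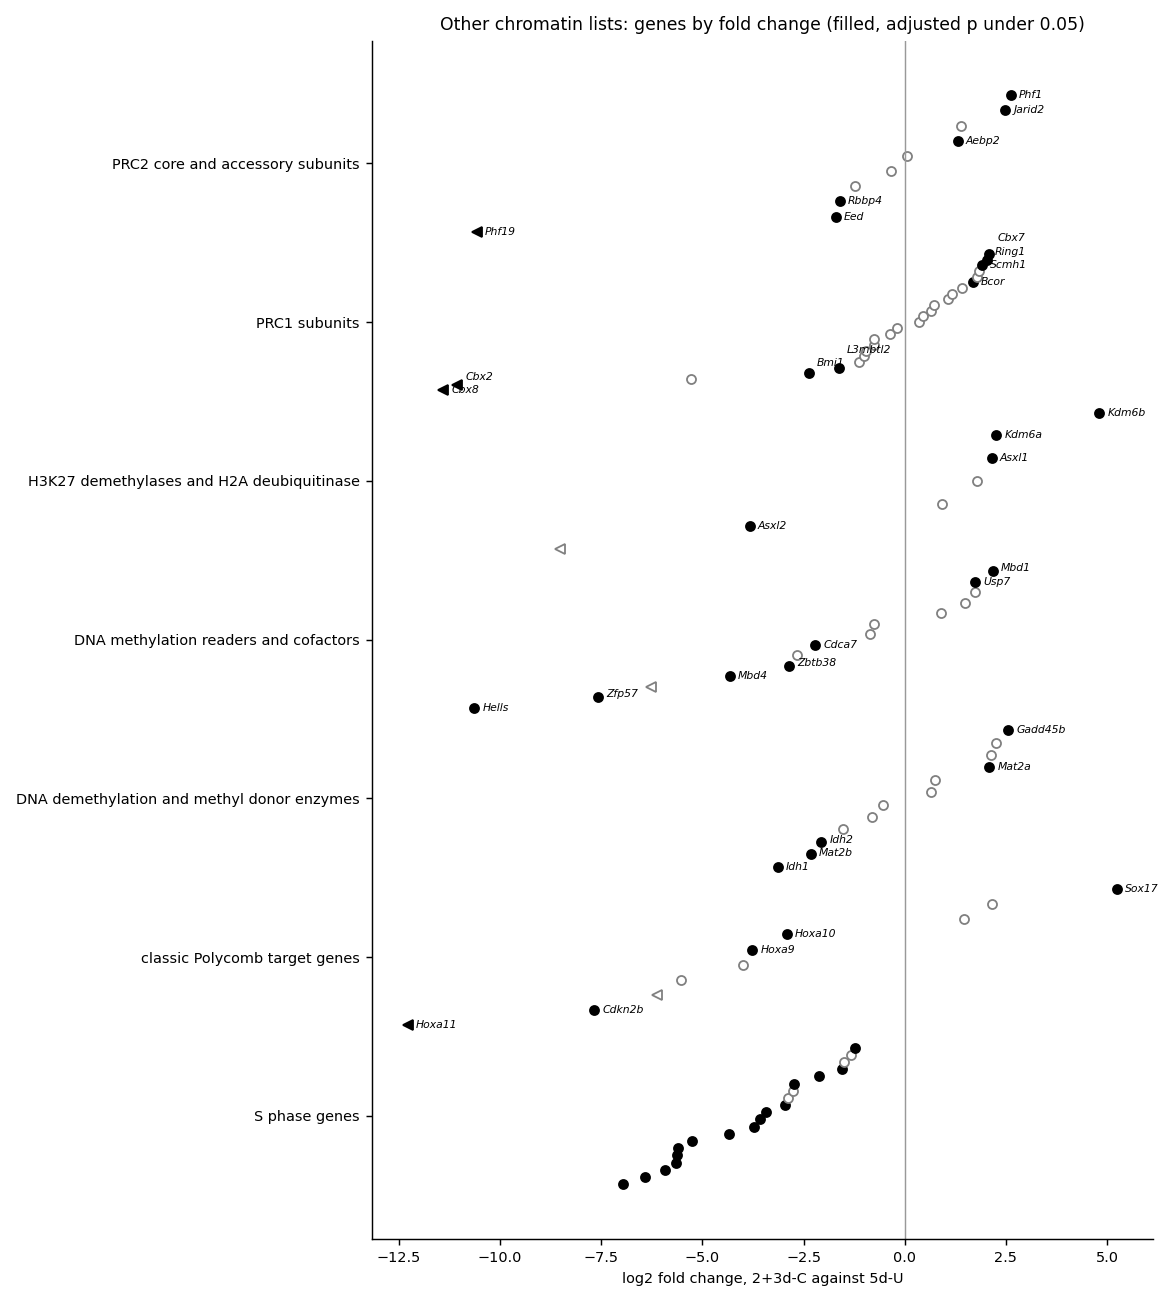
Log2 fold change in 2+3d-C against 5d-U (horizontal axis) of the tested genes of 7 lists, 2 genes left out (rows; genes are spread vertically for legibility). Filled marks passed edgeR's quasi-likelihood test at an adjusted p under 0.05 and are named except in the S phase list; triangles are genes with no read in 2+3d-C, whose position depends on the fit and is no bound.

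Readers of DNA methylation and cofactors of its enzymes also went both ways. Of 15 tested, 5 fell and 3 rose in 2+3d-C against 5d-U (edgeR's quasi-likelihood test), beside 13.4% and 9.14% of all genes. Hells, a remodeller needed for DNA methylation, had 0.00819 ± 0.00839 RPKM in 2+3d-C, 11.4 ± 1.91 in 5d-U, 18.1 ± 4.84 in 2d-U and 0.875 ± 0.361 in F (SD, n = 3). Cdca7, its partner, had 5.43 ± 0.631, 25.3 ± 9.62, 50.4 ± 4.92 and 4.01 ± 0.601 RPKM in the same groups. Mbd4, Zbtb38 and Zfp57 were lower as well. Among the higher were the methyl-CpG binding gene Mbd1 (14.1 ± 6.83 against 3.12 ± 1.45 RPKM), and Usp7, a deubiquitinase that partners Uhrf1 and Dnmt1. Against F, Mbd3 rose in 2+3d-C (1.93 ± 0.44, adjusted p = 0.0246, edgeR), while Hells and Zfp57 fell. Of all genes, 1.94% were higher and 4.47% lower in that comparison.

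Genes known as targets of Polycomb moved in both directions. Of 10 tested, Cdkn2b, Hoxa9, Hoxa10 and Hoxa11 fell and Sox17 rose in 2+3d-C against 5d-U (edgeR's quasi-likelihood test), beside 13.4% of all genes lower and 9.14% higher. Cdkn2b, an inhibitor of the cell cycle, had 0.288 ± 0.498 RPKM in 2+3d-C and ranged from 7.17 to 150 RPKM in 5d-U. Hoxa11, a limb patterning gene, had no read in 2+3d-C and lay at least 571-fold below 5d-U, by the floor of 3 reads over the group. Sox17, known from endothelium, had 28.7 ± 7.56 RPKM in F, 0 in each 2d-U library, 0.142 ± 0.173 in 5d-U and 5.41 ± 1.94 in 2+3d-C, and so was high in the 2 groups where endothelial markers were high. The median over the 10 was -3.88, or -3.36 with the 2 genes that had no read in 1 group set at their limits, beside -1.05 over all genes and -0.063 over those with at least 5 CPM.

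S phase genes and markers of other cells also differed between the groups. In 2+3d-C, 16 of 20 S phase genes fell against 5d-U (13.4% of all genes did), 17 fell against 2d-U (8.63%), and 1, Mcm7, rose against F (1.94%), by edgeR's quasi-likelihood test. By the same test, 18 rose in 2d-U (10.6% of all genes) and 17 in 5d-U (11.6%) against F. Their summed level was 103 to 210 RPKM in F, 1857 to 1985 RPKM in 2d-U, 1508 to 1931 RPKM in 5d-U and 123 to 208 RPKM in 2+3d-C. Rrm2, a subunit of the enzyme that makes deoxynucleotides, was the most abundant in the uncompressed cultures. All uncompressed cultures were above all other libraries, as they were for Uhrf1, Dnmt1 and Ezh2, and the part of S phase in their values was not tested.

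Endothelial markers summed to 251 to 418 RPKM in F and 58.3 to 118 RPKM in 2+3d-C, led by Cldn5, and to at most 1.53 RPKM in 2d-U and 5.93 RPKM in 5d-U. Of these 7 markers, 6 rose in 2+3d-C against 5d-U (edgeR's quasi-likelihood test), where 9.14% of all genes were higher and 13.4% lower, the shares to set beside each marker count that follows, and none was at 0 in all libraries of a group. Fibroadipogenic markers had 568 to 1382 RPKM in F and 187 to 390 RPKM in 2+3d-C, where Dpt led, with 3 of 6 higher than in 5d-U, and at most 34.2 RPKM in uncompressed cultures, with Pdgfra, Lum, Col6a3 and Dpt at 0 in 2d-U. Glial markers (92.8 to 149 RPKM in F and 40.7 to 97.0 in 2+3d-C, led there by Mbp, 3 of 5 higher than in 5d-U) and erythroid markers (196 to 872 and 32.9 to 417 RPKM, led by Hbb-bs, 5 of 6 higher) were at most 2.47 RPKM in the uncompressed cultures, where Sox10, S100b and Alas2 were among those at 0 in 2d-U. Smooth muscle and pericyte markers, led by Acta2, had 231 to 276 RPKM in F, 81.3 to 150 in 2+3d-C, 28.7 to 39.1 in 2d-U and 23.0 to 329 in 5d-U, with 4 of 7 higher in 2+3d-C against 5d-U and Rgs5, Myh11, Kcnj8 and Abcc9 at 0 in 2d-U. Immune markers reached 671 RPKM in F, 58.1 RPKM in 2+3d-C and 82.1 RPKM in 5d-U replicate 1, led by Lyz2 in these groups, and at most 1.05 RPKM in 2d-U, where Ptprc, Adgre1, Lyz2 and Itgam were among those at 0. Of the 8, Ptprc fell in 2+3d-C against 5d-U, and Ptprc, Adgre1 and Cd3e were at 0 in 2+3d-C. MuSC markers summed to 5718 to 6815 RPKM in 2+3d-C, led by Myod1, and to 909 to 2208 RPKM elsewhere, with 5 of 9 higher than in 5d-U. Myod1 alone stood at 2235 to 4548 RPKM in 2+3d-C. The paper uses MyoD protein to mark progenitors and committed cells, so this sum does not measure the stem cell state alone. Tet2 was higher in every F and 2+3d-C library than in every uncompressed culture, as were the sums of endothelial, fibroadipogenic, glial and erythroid markers, and Ezh1 was too except in 2+3d-C replicate 5. The sums of smooth muscle and immune markers overlapped between 5d-U and 2+3d-C. The part of such cells in the values of Tet2 and Ezh1 was not tested. In bulk RNA, fewer cells of a type and less RNA per cell cannot be told apart.

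**Figure D5:**
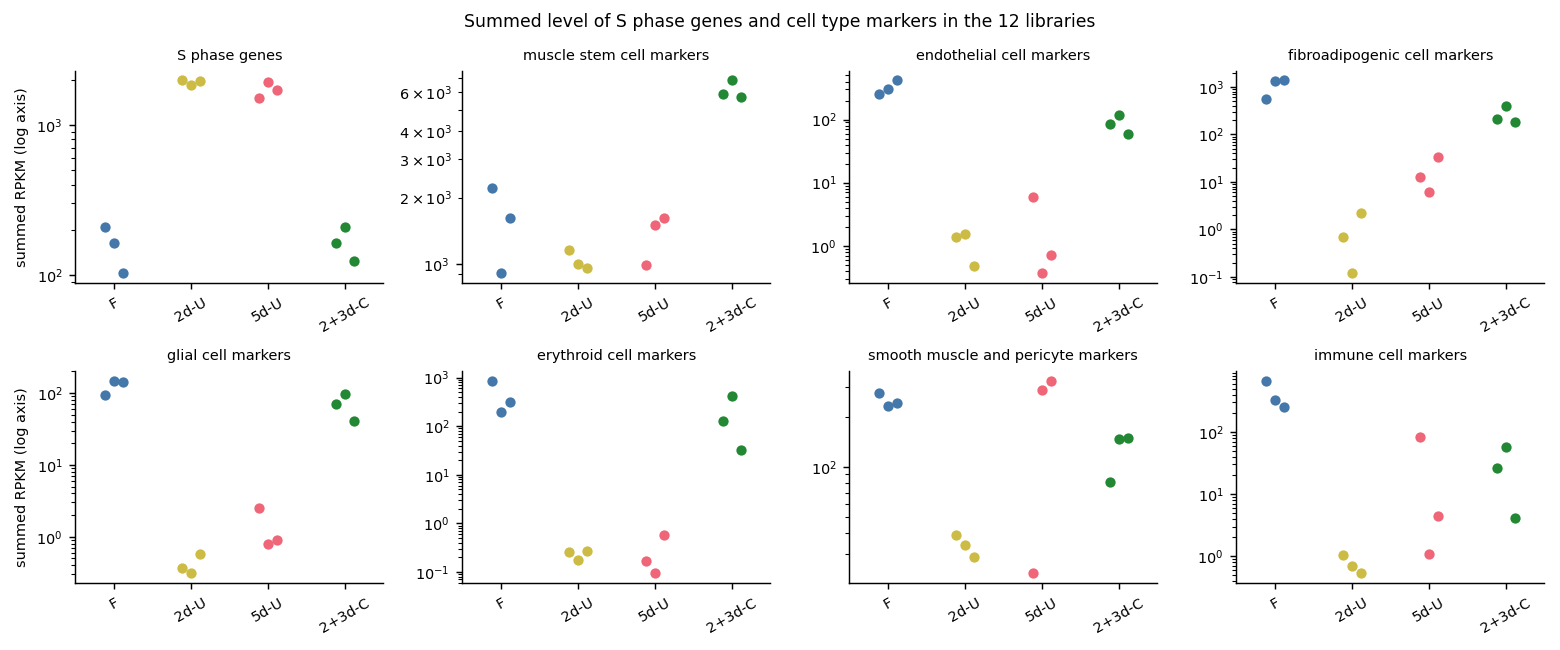
Summed RPKM (vertical axes, log scale, which differ between panels) of S phase genes, MuSC markers and markers of 6 other cell types in each of the 12 libraries (points). S phase genes lie between 1508 and 1985 RPKM in uncompressed cultures and between 103 and 210 RPKM in F and 2+3d-C, and endothelial markers are at most 5.93 RPKM in the former and at least 58.3 RPKM in the latter.

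Likeness of level was taken over the 12 libraries among the other genes whose mean reached 10 CPM, 9081 for Uhrf1, Ezh2 and Ezh1 and 9082 for Tet1, which itself lies below that mean. The levels most like that of Uhrf1, by Pearson's r of log2 CPM, were those of Fancb, Racgap1, Bub1b, Kif11 and Cep57l1 (r from 0.990 to 0.993). For Ezh2 they were Ubxn2b, Oxnad1, Tgds, Rad50 and Slf1 (0.984 to 0.991). For Ezh1 they were Trak1, Mfsd4a, Trp53bp2, Neo1 and Rffl (0.956 to 0.958), and for Tet1 they were Adamts2, Sh3bgrl2, Cpne2, Fbxo32 and Col11a1 (0.794 to 0.862). Among the 10 genes themselves, Uhrf1 had r = 0.82 with Ezh2, 0.77 with Dnmt1 and -0.79 with Tet2, Ezh1 had r = 0.84 with Dnmt3a and 0.73 with Tet2, and Dnmt3b had r = 0.91 with Tet3, both near 0 in the same compressed library. These r describe 12 libraries in 4 groups that share group differences and depth.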

How the data were processed

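RNA was amplified as full-length cDNA with a SMART-seq v4 kit and sequenced from one end. The authors mapped the reads to mm10 with an nf-core pipeline, and per the file headers counted them on the exons of each GENCODE vM23 gene with featureCounts 1.6.4 and no strand. The deposited values are raw counts, 1 column for each of the 12 libraries. Groups were taken from the labels.

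Here, edgeR 4.0.16 in R 4.3.3 was used for the tests: filterByExpr by group (22635 genes), TMM scaling, 1 quasi-likelihood fit of all 12 libraries with a coefficient per group, and two-sided tests of 6 comparisons with Benjamini-Hochberg adjustment over all tested genes. The SE is the log2 fold change divided by the root of the F statistic. RPKM rests on library sizes after TMM scaling and on the exon lengths given in the files. 3 ratios of RPKM + 0.01 were tested on the log2 scale over all assignments of libraries to groups; 3 against 3 cannot reach a p under 0.1. Alternatives were DESeq2 1.42.0, no TMM, other filters, the 2 groups alone, the replicate number as a block, subtraction of reads expected from silent genes, a pseudocount of 0.1 and each library left out. Leaving out the 4 libraries with over 0.5 silent-gene reads per kb was chosen after seeing the data.

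The 10 genes and all lists were chosen with earlier results of these data known. All 10 genes are named, and of each list those that passed, some of which are not reported here, with further genes by likeness of level (the 5 highest r). Start windows are from RefSeq (GRCm38.p6). In simulated data for 2+3d-C against 5d-U (16917 genes tested, 200 changed), 98% of genes changed by a log2 of 3 and 40% of those changed by 2 were called, with 4 false calls.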

Additional observations from a re-analysis of the deposited data

How the results depend on the processing

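Of the 12 called differences among the 10 genes, none changed direction under any alternative, and none of the 27 values that did was past the threshold with all libraries. In this order of comparisons (2+3d-C against 5d-U, 2d-U and F, 5d-U against 2d-U, 2d-U against F, 5d-U against F), 4, 3, 0, 0, 3 and 2 of the 10 genes passed, with 5110, 5573, 1449, 479, 9922 and 4643 of all genes. The cause of the changes below was not tested.

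With DESeq2, 5 of the 10 genes passed in 2+3d-C against 2d-U, 1 in 2+3d-C against F, 7 in 2d-U against F and 4 in 5d-U against F. Of all genes, 7406, 4130, 10401 and 6593 passed in the same comparisons, and 2833 in 5d-U against 2d-U. The 4130 were 831 higher and 3299 lower, where edgeR gave 438 and 1011. It called 2785 genes higher and 3808 lower in 5d-U against F, where edgeR called 2629 and 2014. Without TMM, 171 genes (126 higher and 45 lower, where TMM gave 424 and 55) passed in 5d-U against 2d-U, and the split became 2537 higher and 3139 lower (from 3619 and 1954) in 2+3d-C against 2d-U and 142 and 1217 in 2+3d-C against F. Relative to TMM, the median of all genes moved by 0.15, -0.25, -0.20, -0.21 and -0.39 with DESeq2 and by -0.16, -0.48, -0.48, 0.09 and -0.29 without TMM in the same order of comparisons, 2+3d-C against 2d-U aside, where it stayed at 0. Values that changed sign without TMM were those of Dnmt3b (-0.12) and Ezh1 (-0.10) in 2+3d-C against F and Suz12 (-0.093) in 5d-U against 2d-U, and Ezh1 against 5d-U (1.88, adjusted p = 0.0503) and Uhrf1 in 5d-U against F (2.93, adjusted p = 0.0668) no longer passed edgeR.

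With no filter, 5 of the 10 genes passed in 2+3d-C against 2d-U, 1 in 2+3d-C against F and 5 in 2d-U against F. Of all genes, 5782, 2794 and 13205 passed in the same comparisons, and 2066 in 5d-U against 2d-U. With a mean of at least 5 CPM, 6 passed in 2d-U against F and 4 in 5d-U against F, beside 4941 and 5071 of all genes. In 2+3d-C against F and 5d-U against 2d-U, 788 and 311 of all genes passed. Dnmt1 in 2+3d-C passed against 5d-U (-1.16, adjusted p = 0.0432, edgeR). Fitting the 2 groups alone gave 2 of the 10 genes in 2+3d-C against 5d-U (Ezh1 and Ezh2 were lost), 7 in 2d-U against F and 4 in 5d-U against F, with 3969, 8699 and 6064 of all genes, and 768 genes in 5d-U against 2d-U.

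Libraries with the same replicate number did not deviate together (r from -0.424 to 0.0322), and the labels do not say that a number marks a pair. With the replicate number as a block, 1, 1, 2, 1 and 1 of the 10 genes passed in the 5 comparisons other than 5d-U against 2d-U. Of all genes, 3826 (728 higher and 3098 lower, from 2068 and 3042), 1926, 1960, 2739 and 1261 passed in the same order. The calls of Tet2 (adjusted p from 0.0627 to 0.234, edgeR), Dnmt1 (0.0754 and 0.0786), Ezh1 (0.528) and Ezh2 (0.554) were lost. Uhrf1 (-3.43, adjusted p = 0.00347, edgeR) and Tet1 (-10.5, adjusted p = 0.00468, edgeR) passed in 2+3d-C against F. These results rest on 2+3d-C replicates 4 and 5, where Tet1 had 0 reads. Under the block, Tet1 in 2+3d-C against 2d-U was -4.20, Tet3, Ezh1 and Ezh2 against F were 0.069, -0.29 and 0.29, Dnmt3b in 2d-U against F was 0.43 and Tet3 in 5d-U against F was 0.026, all of the other sign.

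With reads expected from silent genes subtracted, 4 of the 10 genes passed in 5d-U against F, beside 5533 of all genes (2587 higher and 2946 lower). In 5d-U against 2d-U, 131 of all genes passed, and Tet1 in 2+3d-C against 5d-U became 0.57. With the 4 libraries that hold such reads left out, 2, 1 and 0 of the 10 genes passed in 2+3d-C against 5d-U, 2d-U against F and 5d-U against F, and 1138, 3325, 19, 11, 1695 and 173 of all genes. There, signs changed for Tet1 (1.37) and Suz12 (-0.073) against 5d-U, for Dnmt1 (0.67), Dnmt3a (0.10) and Tet3 (0.83) in 2+3d-C against F, and for Tet1 (-0.65) and Tet2 (-0.26) in 5d-U against 2d-U.

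With 1 library left out, 2 to 5, 3 to 5, 0 to 1, 0 to 0, 3 to 5 and 1 to 3 of the 10 genes passed, and 3065 to 5267, 3761 to 5651, 248 (without F replicate 4) to 10063 (without F replicate 1), 153 (without 2d-U replicate 3) to 1334 (without 2+3d-C replicate 10), 5060 (without F replicate 5) to 16533 (without F replicate 1) and 3028 to 5287 of all genes. The adjusted p of the ratios (exact permutation tests) ranged from 0.000195 to 0.0676 for Ezh2 to Ezh1, from 0.000974 to 0.0288 for Uhrf1 to Dnmt1 and from 0.000974 to 0.00526 for Dnmt1 to Dnmt3a. Signs changed for Dnmt3b in 5d-U against 2d-U (-0.80 to 0.34, positive without 2d-U replicate 1) and, in 2+3d-C, for Suz12 against 5d-U (-0.036 to 0.57) and Dnmt3b (-0.80 to 1.00) and Ezh1 (-0.35 to 0.77) against F, all negative without 2+3d-C replicate 4. Signs also changed for Dnmt1 (-0.56 to 0.14, positive without 2+3d-C replicate 5 or F replicate 5), Suz12 (-0.54 to 0.016, positive without 2+3d-C replicate 5) and Tet3 (-0.97 to 0.44, positive without 2+3d-C replicate 10 or F replicate 5) against F, and for Tet1 against 2d-U (-7.41 without 2+3d-C replicate 10 to 4.28). A pseudocount of 0.1 RPKM changed no call of a ratio. Uhrf1, Tet1, Dnmt3b, Tet3 and Ezh2 had at most 5 reads in some compressed libraries, Tet1 also in the deepest.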

Other observations

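Enzymes around DNA demethylation and the methyl donor moved in both directions. Against 5d-U, 2 of 12 genes rose and 3 fell in 2+3d-C (edgeR's quasi-likelihood test, adjusted p under 0.05), beside 9.14% and 13.4% of all genes. Mat2a, which makes the methyl donor S-adenosylmethionine, was 2.09 ± 0.39 higher on the log2 scale (411.8 against 96.7 RPKM, adjusted p = 0.00175, edgeR), and its regulatory partner Mat2b was lower by -2.32 ± 0.51 (6.76 against 33.7 RPKM, adjusted p = 0.00476, edgeR). Gadd45b, a stress-induced gene tied to DNA demethylation, was 2.55 ± 0.53 higher (340.7 against 58.2 RPKM, adjusted p = 0.00359, edgeR). Idh1 and Idh2, which make the cofactor that TET enzymes use, were lower, Idh1 by -3.14 ± 0.84 (2.91 against 25.6 RPKM, adjusted p = 0.0153, edgeR) and Idh2 by -2.06 ± 0.56 (43.5 against 181.7 RPKM, adjusted p = 0.0168, edgeR). Against F, none of the 12 passed in 2+3d-C, where 6.40% of all genes did.

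Germline genes that DNA methylation is known to keep silent were near the floor. Of 12, 8 were tested, and none passed in 2+3d-C against 5d-U, 2d-U or F, where 22.6%, 24.6% and 6.40% of all genes did. In 2d-U against F, where 33.3% of all genes were lower and 43.8% passed in either direction, Dazl, Sycp1, Tdrd1 and Stk31 passed as lower, with no read in any 2d-U library and means from 0.182 (Tdrd1) to 0.383 RPKM (Stk31) in F, all from replicates 4 and 5, since none of the 4 had a read in F replicate 1. Silent genes stood at 0.165 and 0.183 RPKM in F replicates 4 and 5, and the part of such reads in these values was not tested.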
